A study of Mus musculus with 8 samples.

Results

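Expression of 8 genes of blood coagulation and fibrinolysis was followed in leukocytes of healing skin wounds: F7, F10, F5 and F13a1, which encode coagulation factors, Plau, Plaur and Serpinb2 of the urokinase system, and Thbs1, which encodes thrombospondin 1. The members were chosen by gene name, with earlier results of these data known. All 8 have a row in each of the 8 count tables, out of 21742 genes named in any table once mitochondrial genes were left out. Single-cell RNA sequencing was done on CD45+ cells sorted from wounds on days 1, 3, 5 and 7, with 1 library for each group and day and 5 mice pooled in each library. All mice were male C57BL/6J. Diabetic mice had received streptozotocin (STZ, which kills pancreatic beta cells) at 120 mg/kg at 4 weeks of age after fasting, and counted as diabetic at a blood glucose of at least 16.5 mmol/L 7 days later. Control mice carried the same wounds without diabetes. Because each library is 1 pool, no single day can be tested, and differences between 2 libraries of a day are given as ratios with exact Poisson intervals that cover counting error only.

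Clotting starts when tissue factor, outside the bloodstream, meets factor VII. The active complex cuts factor X, factor Xa joins its cofactor factor V to make thrombin, thrombin turns fibrinogen into fibrin, and factor XIIIa, whose catalytic A subunit is the product of F13a1, cross-links the fibrin clot. The clot is later removed by plasmin. Urokinase, from Plau, makes plasmin from plasminogen and is held on the cell surface by its receptor, from Plaur, while plasminogen activator inhibitor 2, from Serpinb2, blocks urokinase and is largely kept inside the cell. Thrombospondin 1 is a matrix protein of platelets and activated myeloid cells that binds CD36, CD47 and fibrin. Liver is the usual source of plasma factors VII, X and V, and skin wounds add the products of recruited neutrophils, monocytes and macrophages.

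The libraries held 38959 barcodes, of which 35158 passed as cells, and 18814802 to 32956113 UMIs (unique molecular identifiers, 1 per captured transcript) were counted in the cells of a library. Levels are CPM, a gene's UMIs over all UMIs of the same cells, scaled by 1e6. Of the barcodes, 28.6% were removed in the control day 5 library, 27.1% for a high mitochondrial share, against 1.00% to 10.8% in the other libraries, so values are also given without it below. Clusters were named from marker genes, with the 8 members and their pathway left out of the genes that drew the clusters. They gave 13760 neutrophil-like, 4706 monocyte-like, 6260 macrophage-like, 385 osteoclast-like, 2859 dendritic-like, 2443 T cell-like, 556 NK cell-like, 148 mast cell-like and 50 fibroblast-like cells, with 3991 shallow cells left unnamed. Macrophage-like cells made up 1.91%, 13.1%, 4.57% and 24.9% of cells on days 1, 3, 5 and 7 in diabetic wounds and 2.22%, 11%, 44.5% and 49.0% in control wounds, and monocyte-like cells 29.7%, 13%, 13.9% and 5.73% against 26.6%, 9.86%, 2.73% and 1.27%. These shares depend on the clustering: at resolution 0.4, 525 and 305 cells of the day 1 libraries were macrophage-like in place of 91 and 98, and with the mitochondrial share regressed out, 585 cells of control day 5 were monocyte-like in place of 89. In a level over all cells, fewer cells of a type and less RNA per cell cannot be told apart, and the levels within classes are given for that reason.

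Markers of other cells that could carry these transcripts into a CD45+ sort were summed per library. The 6 platelet markers came to 22.2 to 663 CPM, highest in control day 1 and next in diabetic day 1 (199 CPM), and to 1.80 to 2.42 CPM without Ppbp, a platelet chemokine gene that stood at 859 CPM in a monocyte-like cluster (MON-1-like). Erythroid markers came to 0.233 to 5.96 CPM. Endothelial markers reached 10.5 to 35.1 CPM, and fibroblast markers ran from 15.8 CPM in control day 1 to 741 in diabetic day 7 and 1583 in control day 7. The part of such cells in the values below was not tested.

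Gene positions are those of the GENCODE annotation of mouse build GRCm38, since the tables give symbols alone. F7 lies at chr8:13026034-13035809 and F10 follows it on the same strand at chr8:13037308-13056676, with 1498 bases between them. The other members are spread over the genome, with F5 at chr1:164151838-164220277, Serpinb2 at chr1:107511423-107535478, Thbs1 at chr2:118111876-118127133, Plaur at chr7:24462484-24475968, F13a1 on the minus strand at chr13:36867178-37050244 and Plau at chr14:20836660-20843385. All 8 are protein-coding. Promoter windows of 250 bases before an annotated start were read from RefSeq (GRCm38.p6) and were found for 6 members, 2 of which (Serpinb2 and F13a1) have a second window for another start. The windows of 4 members are shown, 5′ to 3′ on the strand of the gene, to set an inducible gene (Serpinb2), a broadly used receptor gene (Plaur) and the factor genes F10 and F13a1 side by side. Capitals mark matches to any of 5 motifs searched on both strands: AP-1 (TGANTCA), the PU.1 core (GAGGAA), C/EBP (TTGCNNNAA), the TATA box (TATAAA) and the CCAAT box (CCAAT). No match overlapped another in these windows.
Serpinb2, chr1:107511173-107511422: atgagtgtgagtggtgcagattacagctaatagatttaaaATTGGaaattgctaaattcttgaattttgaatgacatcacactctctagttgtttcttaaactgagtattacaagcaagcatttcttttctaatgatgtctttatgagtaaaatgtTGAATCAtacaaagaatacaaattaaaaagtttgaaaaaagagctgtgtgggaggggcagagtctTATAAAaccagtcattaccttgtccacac
Plaur, chr7:24462233-24462482: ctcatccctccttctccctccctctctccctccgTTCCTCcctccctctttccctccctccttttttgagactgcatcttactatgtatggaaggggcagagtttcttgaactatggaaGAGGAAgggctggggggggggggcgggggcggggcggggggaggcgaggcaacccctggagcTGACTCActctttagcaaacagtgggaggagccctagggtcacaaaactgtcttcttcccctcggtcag
F10, chr8:13037058-13037307: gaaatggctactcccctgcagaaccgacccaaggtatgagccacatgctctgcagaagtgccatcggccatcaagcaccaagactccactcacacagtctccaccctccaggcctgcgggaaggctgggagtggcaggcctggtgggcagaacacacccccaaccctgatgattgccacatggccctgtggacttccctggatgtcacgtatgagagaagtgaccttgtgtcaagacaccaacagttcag
F13a1, chr13:37050245-37050494: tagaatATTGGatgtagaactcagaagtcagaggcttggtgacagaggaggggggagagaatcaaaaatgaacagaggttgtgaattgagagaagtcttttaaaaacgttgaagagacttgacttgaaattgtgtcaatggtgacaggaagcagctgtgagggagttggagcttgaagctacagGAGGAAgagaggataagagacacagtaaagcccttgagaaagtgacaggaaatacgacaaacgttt

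The Serpinb2 window shown held a TATA box at -29, counted from the start, an AP-1 match at -94 and a CCAAT box on the other strand at -210, in sequence of 32.4% G and C with 0 CpG. Plaur had an AP-1 match at -69 and PU.1 cores at -131 and -216, in a window of 59.6% G and C with 6 CpG. F13a1 had a PU.1 core at -66 and a CCAAT box at -244. None of the 5 motifs was found in the F10 window or in the second F13a1 window. Counted from its own start, the second Serpinb2 window, which overlaps the first, had the TATA box at -116, the AP-1 match at -181 and a C/EBP match at -20, with 3 CpG. Of 32851 windows of the same length, 6.75% held the AP-1 motif, 12.4% the TATA box, 23.3% the PU.1 core, 33.8% the CCAAT box and 8.29% the C/EBP motif. A match is a string of letters and no measured binding site.

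The factor genes of the clotting cascade did not share 1 cell source. Of the UMIs of each gene over all cells kept, 50.7% of F10 were in monocyte-like cells and 28.4% in neutrophil-like cells, 67.8% of F5 were in neutrophil-like cells, 51.9% of F13a1 were in macrophage-like and 34.0% in monocyte-like cells, and F7 was divided among macrophage-like (41.6%), monocyte-like (28.7%) and neutrophil-like (16.9%) cells. These shares follow the number and depth of the cells as well as the level in each cell. F7 and F5 were rare transcripts, with 3363 and 5676 UMIs in all, against 45264 for F10 and 94687 for F13a1.

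**Figure D1:**
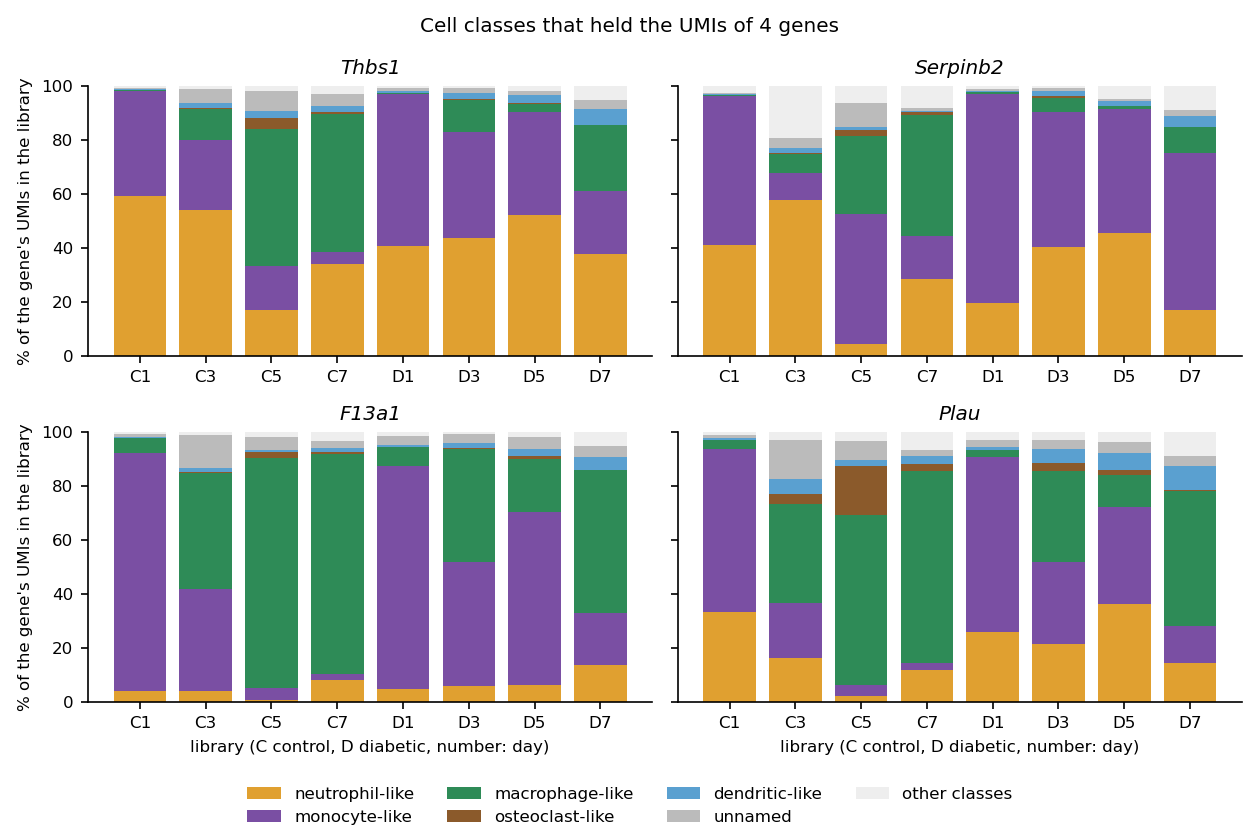
Share of the UMIs of Thbs1, Serpinb2, F13a1 and Plau held by each cell class, in percent (vertical axis), 1 stacked bar per library (C control, D diabetic, with the day). For F13a1, monocyte-like cells held 82.8% and 88.2% on day 1 in diabetic and control wounds, and macrophage-like cells held 53.0% and 81.4% on day 7, while on day 5 monocyte-like cells held 64.3% in diabetic and 4.38% in control wounds.

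F10, which encodes the zymogen that activated factor VII cuts, had its highest median CPM in monocyte-like cells. Its level there was 828, 486, 575 and 678 CPM on days 1, 3, 5 and 7 in diabetic wounds and 632, 358, 292 and 640 CPM in control wounds. In macrophage-like cells it was 158, 109, 111 and 163 CPM against 98.0, 78.8, 54.9 and 125 CPM, so that no macrophage-like library reached any monocyte-like library. Neutrophil-like cells had 321, 421, 415 and 277 CPM in diabetic and 323, 215, 207 and 142 CPM in control wounds. The difference between monocyte-like and neutrophil-like cells did not pass the test (0.20 ± 0.22, log2, SE; edgeR adjusted p = 0.461), and was called with library size alone (0.94, 0.000115). The difference between macrophage-like and monocyte-like cells was -2.41 ± 0.24 on the log2 scale (SE; edgeR quasi-likelihood test with library as a block, Benjamini-Hochberg adjusted p = 1.40e-09). T cell-like cells, which are not known to make factor X, had a median of 43.2 CPM, and the part of free RNA or doublets in this level was not tested. After each cell was thinned to 1000 UMIs, a median of 37.1% of monocyte-like cells had a F10 UMI, against 17.8% of neutrophil-like, 10.8% of macrophage-like and 3.88% of T cell-like cells. Unthinned, these shares were 76.4%, 30.6%, 34.0% and 13.9%, at median depths of 7872.5, 2476, 8597 and 3913 UMIs per cell.

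F5, which encodes the cofactor of factor Xa, followed neutrophil-like cells. Its levels there were 77.3, 101, 97.7 and 51.0 CPM in diabetic and 82.4, 162, 108 and 75.9 CPM in control wounds. Monocyte-like cells had 10.8 to 59.7 CPM and macrophage-like cells 3.12 to 10.9 CPM, close to the 1.23 to 12.8 CPM of T cell-like cells. F5 was lower in monocyte-like than in neutrophil-like cells in every library, by -2.66 ± 0.27 (log2, SE; edgeR quasi-likelihood test, adjusted p = 1.01e-10), and lower still in macrophage-like cells, by -4.39 ± 0.30 (adjusted p = 4.59e-15). Within the neutrophil-like class, the median over libraries was 128 CPM in the NEU-1-like cluster led by Cxcr2 over 8 libraries and 116 CPM in the NEU-3-like cluster led by the granule genes Ngp, Retnlg and Lcn2 over 5, without day 7. It was 77.7 CPM in the NEU-4-like cluster, 72.5 in the other NEU-1-like cluster and 46.0 in the NEU-2-like cluster. MON-2-like cluster 9, of the monocyte-like class, stood above the last of these, with a median of 52.8 CPM over 7 libraries.

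F13a1, whose product cross-links fibrin, was a gene of monocyte-like and macrophage-like cells. Monocyte-like levels were 830, 853, 707 and 1013 CPM in diabetic and 1069, 588, 800 and 937 CPM in control wounds. Macrophage-like levels were 1833, 861, 767 and 740 CPM against 1451, 605, 969 and 959 CPM. Both classes overlapped over the libraries, and their difference was 0.10 on the log2 scale and did not pass the test. Neutrophil-like cells had 63.4, 94.5, 63.0 and 404 CPM against 58.6, 50.5, 158 and 374 CPM, lower than monocyte-like cells in every library (2.16 ± 0.26, log2, SE, for monocyte-like over neutrophil-like, edgeR adjusted p = 6.75e-09). Among clusters, the MAC-2-like cluster led by Ccl8, Retnla, Lyve1 and Cd163 had the highest median, 1784 CPM with a range of 1303 to 2789, and the MON-1-like cluster had 1041 CPM (871 to 1211). Dendritic-like cells had a median of 57.8 CPM and T cell-like cells 147 CPM (39.1 to 278).

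F7, the partner of tissue factor, was at most 51.6 CPM in each class of each library with at least 20 cells. The medians were 26.4 CPM in monocyte-like, 18.6 in macrophage-like and 12.0 in neutrophil-like cells, against 2.15 in T cell-like cells. F7 was -0.63 ± 0.20 lower in macrophage-like than in monocyte-like cells (log2, SE; edgeR quasi-likelihood test, adjusted p = 0.0259). This call was lost without diabetic day 5 (adjusted p = 0.0610), without diabetic day 7 (0.0504), without control day 7 (0.0638), with Scrublet doublets removed (0.0897), without the top 5% of Scrublet scores (0.120) and when levels were scaled by library size alone (0.107).

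**Figure D2:**
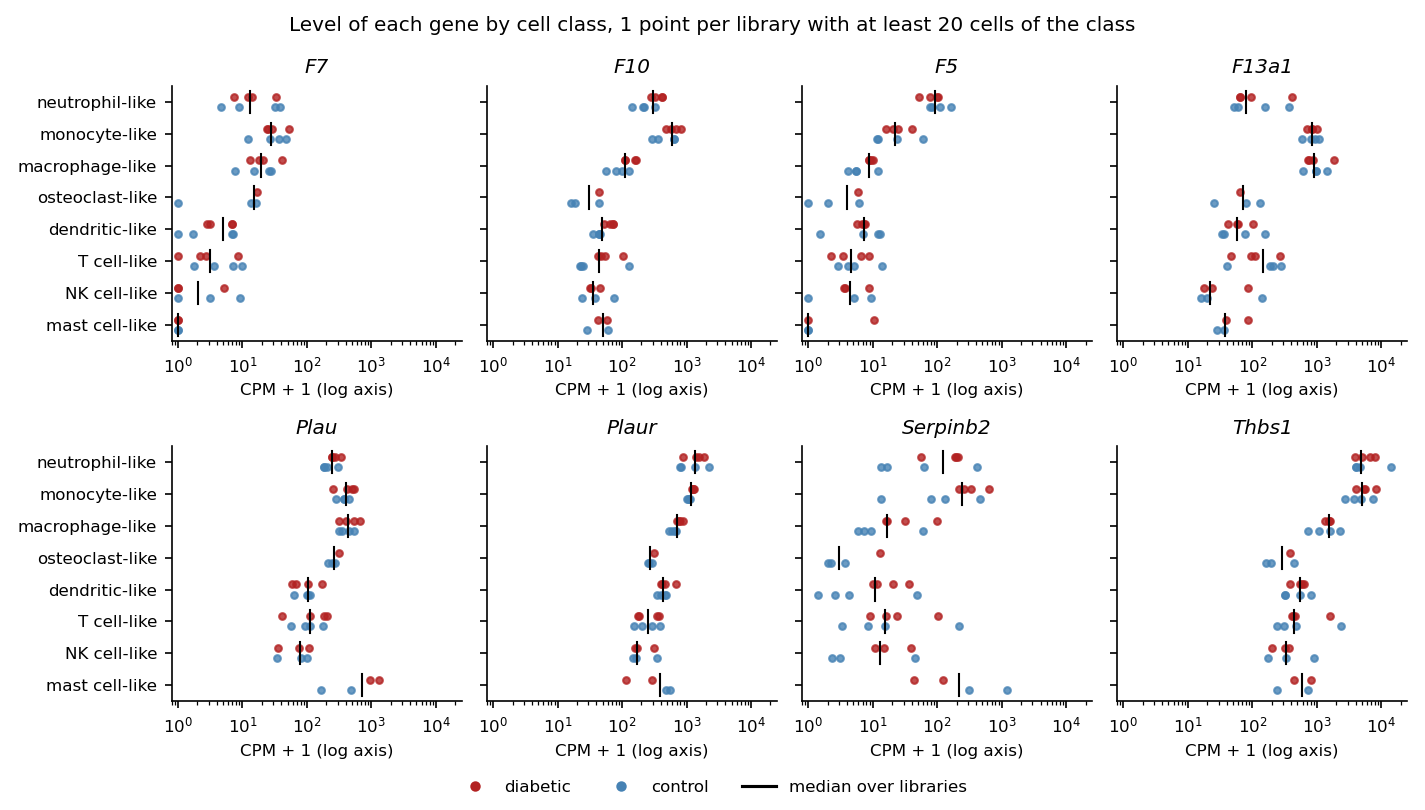
Level of each gene in each cell class as CPM + 1 (horizontal log axis), 1 point per library with at least 20 cells of the class, coloured by group, with the median marked. F5 is spread toward neutrophil-like cells, F10 toward monocyte-like cells and F13a1 toward monocyte-like and macrophage-like cells, with medians of 90.1, 604, 842 and 910 CPM in those classes in turn.

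Plaur, the urokinase receptor gene, had 1847, 1376, 1575 and 873 CPM in neutrophil-like cells of diabetic wounds and 2216, 1331, 799 and 828 CPM in those of control wounds. Monocyte-like cells stood at 1024 to 1323 CPM in all 8 libraries, and macrophage-like cells at 530 to 879 CPM. Thinned to 1000 UMIs, a median of 64.8% of monocyte-like and 60.8% of neutrophil-like cells had a Plaur UMI, against 16.9% of T cell-like cells. Unthinned, the shares were 97.0%, 79.4% and 46.8%. Plaur was lower in macrophage-like than in monocyte-like cells (-0.84 ± 0.24, log2, SE; edgeR adjusted p = 0.0101), and dendritic-like cells had a median of 437 CPM.

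Plau, which encodes urokinase itself, was at 183 to 333 CPM in neutrophil-like, 256 to 532 CPM in monocyte-like and 309 to 654 CPM in macrophage-like cells. The macrophage-like to monocyte-like difference was 0.03 on the log2 scale, and the monocyte-like to neutrophil-like difference was -0.11, which became 0.66 (adjusted p = 0.00190) when edgeR scaled by library size alone, as CPM do. Against neutrophil-like cells, macrophage-like Plau differed by -0.08 and, with library size alone, by 0.82 (edgeR adjusted p = 0.000155). On the CPM scale monocyte-like cells had more Plau than neutrophil-like cells in every library. Osteoclast-like cells had a median of 260 CPM over 4 libraries. The small mast cell-like cluster had 942 and 1289 CPM on days 1 and 3 in diabetic and 483 and 164 CPM in control wounds. These rest on 100, 123, 41 and 18 UMIs in turn. Over all libraries, also those too small for a level, the cluster held 485 UMIs in 99 of 148 cells.

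Serpinb2, the urokinase inhibitor gene, varied widely between libraries within a class. Monocyte-like cells had 626, 261, 214 and 333 CPM in diabetic and 454, 12.4, 133 and 80.2 CPM in control wounds. Neutrophil-like cells had 210, 185, 197 and 56.0 CPM against 413, 60.6, 12.2 and 15.5 CPM. Macrophage-like cells had 99, 30.2, 15.9 and 15.3 CPM against 60.1, 8.39, 4.90 and 6.33 CPM. The values after day 1 lay on both sides of the T cell-like median of 14.6 CPM, and those of day 1 well above it. Macrophage-like cells were lower than monocyte-like cells by -3.55 ± 0.43 (log2, SE; edgeR adjusted p = 8.44e-08). On day 1 T cell-like cells had 101 CPM in diabetic and 213 CPM in control wounds, and the part of free RNA or doublets in this was not tested.

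Serpinb2 was also unevenly spread among the cells of a class. In monocyte-like cells, the 10% of cells with most Serpinb2 UMIs held a median of 90.2% of them over 6 libraries (82.7% to 98.5%), against 38.4% for F10, 36.9% for F13a1 and 25.0% for Plaur. The rare transcripts F7 and F5 were as unevenly spread there, with medians of 90.8% and 93.6% over 5 libraries each. A share of cells with any UMI follows depth, so the thinned share is the one to compare: 7.59% of monocyte-like cells against 1.03% of T cell-like cells (20.2% and 4.39% unthinned). The MON-1-like cluster, led by Ppbp, held 9679 of the 22912 Serpinb2 UMIs, and its levels were 1099, 408, 567 and 420 CPM in diabetic and 601, 25.7, 227 and 147 CPM in control wounds. In that cluster the top 10% of cells still held a median of 85.6% of the UMIs. In mast cell-like cells, 256 UMIs lay in 28 of 148 cells, and 52 of the 102 UMIs of control day 1 came from 1 cell, so the 1203 CPM of that library is the value of a few cells.

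Thbs1 had 620041 UMIs in all, 46.8% of them in neutrophil-like and 36.6% in monocyte-like cells. Its levels were 8023, 3901, 6783 and 5053 CPM in neutrophil-like cells of diabetic and 13882, 4641, 4010 and 4097 CPM of control wounds. Monocyte-like cells had 8361, 3975, 5335 and 5486 CPM against 7398, 2712, 3761 and 4799 CPM. Macrophage-like cells, at 719 to 2280 CPM, were lower than monocyte-like cells in each library (-1.94 ± 0.23, log2, SE; edgeR adjusted p = 6.38e-08). The NEU-3-like cluster of granule-rich neutrophils had a median of 8129 CPM (3431 to 15194) over the 5 libraries with at least 20 of its cells, which hold no day 7, so it cannot be ranked against clusters present on all days. T cell-like cells had 244 to 2390 CPM of Thbs1, with both day 1 libraries highest, at 1583 and 2390 CPM. A Thbs1 UMI was found in 79.9% of monocyte-like, 81.5% of neutrophil-like and 29.1% of T cell-like cells after thinning (98.0%, 91.7% and 70.6% unthinned).

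**Figure D3:**
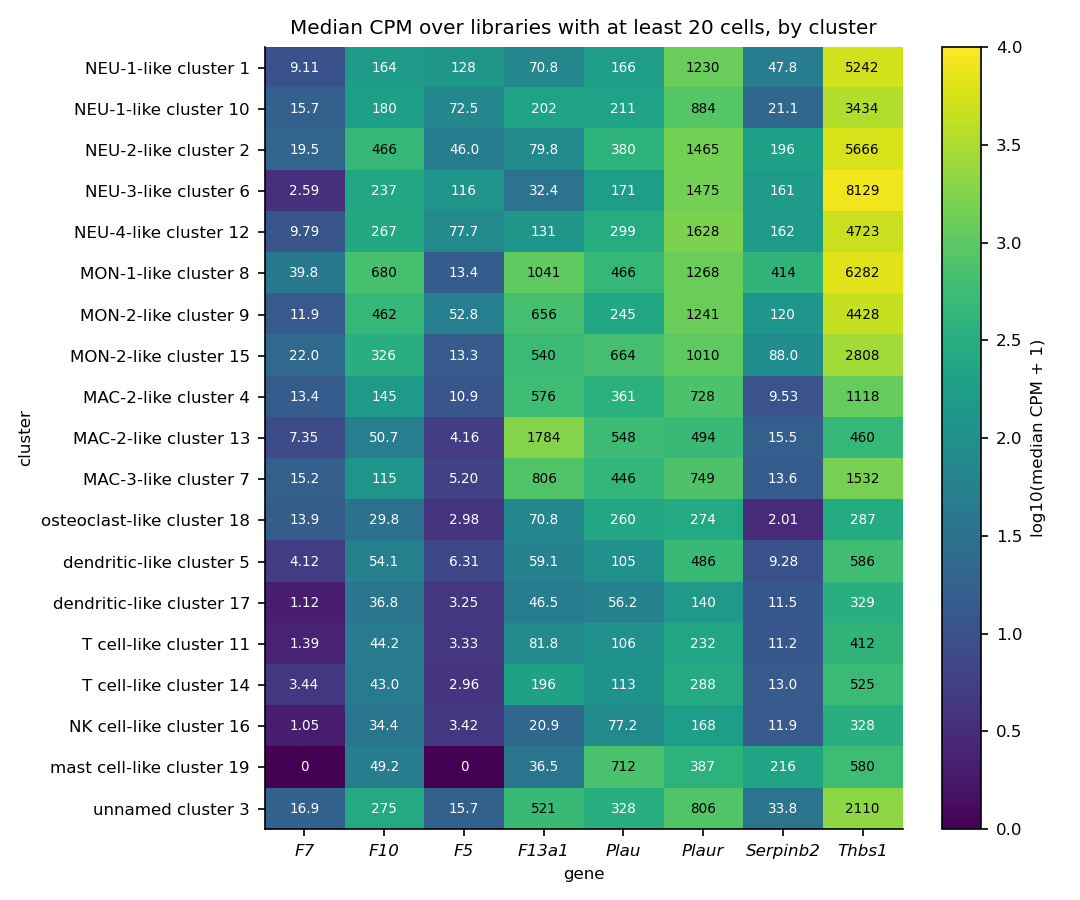
Median CPM over libraries with at least 20 cells for each gene (columns) in each cluster (rows), written in the cell and coloured as log10(median CPM + 1). Serpinb2 stands at 414 CPM in the MON-1-like cluster, F13a1 at 1784 CPM in the MAC-2-like cluster 13 and Thbs1 at 8129 CPM in the NEU-3-like cluster.

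Over all genes, edgeR called 58.6% of genes tested as different between monocyte-like and neutrophil-like cells, 63.6% between macrophage-like and neutrophil-like cells and 19.1% between macrophage-like and monocyte-like cells. Of the 8 members, 4, 6 and 6 were called. In the last contrast all 6 were lower in macrophage-like cells, a direction that 9.57% of genes tested had. Against neutrophil-like cells, the calls rest on the scaling: 2801 of 6227 genes called were higher in monocyte-like cells with TMM factors, and 6053 of 7610 were when library size alone was used, which moved the median of all genes from -0.01 to 0.66. On that scale Plaur (-0.18, adjusted p = 0.339) and Thbs1 (-0.21, adjusted p = 0.310) were no longer called lower, and F10, F7, Plau and Serpinb2 were called higher in monocyte-like cells (0.94, 1.04, 0.66 and 1.01). For macrophage-like against neutrophil-like cells the split went from 3408 of 6759 to 6766 of 8270, and the median from 0.07 to 0.82. There F13a1 was called higher and F10, F5, Plaur, Serpinb2 and Thbs1 lower on both scales. F7 was called higher in monocyte-like than in neutrophil-like cells without control day 5 (0.57, edgeR adjusted p = 0.0204), diabetic day 5 (0.53, 0.0363), control day 1 (0.45, 0.0499) or control day 7 (0.49, 0.0464), at 500 genes per cell (0.70), with cells named singly (1.37) and at resolution 1.6 (0.77), where F10 was called as well (0.63, 0.0106). Without control day 5 the other calls of the 3 contrasts were made too.

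Over all cells, 5 of the 8 members fell with the days after wounding, as tested below. Serpinb2 was 392, 128, 121 and 48.5 CPM over all cells on days 1, 3, 5 and 7 in diabetic wounds and 405, 24.3, 9.48 and 8.25 CPM in control wounds. Thbs1 was 7222, 2498, 3646 and 1985 CPM in diabetic and 9396, 1994, 790 and 1825 CPM in control wounds. F10 was 545, 286, 299 and 183 CPM against 453, 159, 64.3 and 118 CPM. In each group, day 1 was the highest library for these 3 genes. The ratio of day 1 to day 7 for Serpinb2 was 8.08 (95% counting interval 7.58 to 8.63) in diabetic and 49.0 (43.4 to 55.5) in control wounds.

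Plaur was 1369, 1058, 969 and 608 CPM in diabetic and 1487, 804, 535 and 622 CPM in control wounds. Plau was 376, 433, 187 and 256 CPM against 359, 262, 304 and 260 CPM, and F5 was 48.5, 37.4, 34.5 and 14.2 CPM against 45.4, 53.5, 6.73 and 19.9 CPM. F13a1 and F7 did not follow this course. F13a1 was 487, 457, 288 and 443 CPM in diabetic and 596, 297, 632 and 689 CPM in control wounds, and F7 was 16.8, 15, 12.2 and 25.1 CPM against 16.0, 7.15, 23.3 and 22.6 CPM.

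**Figure D4:**
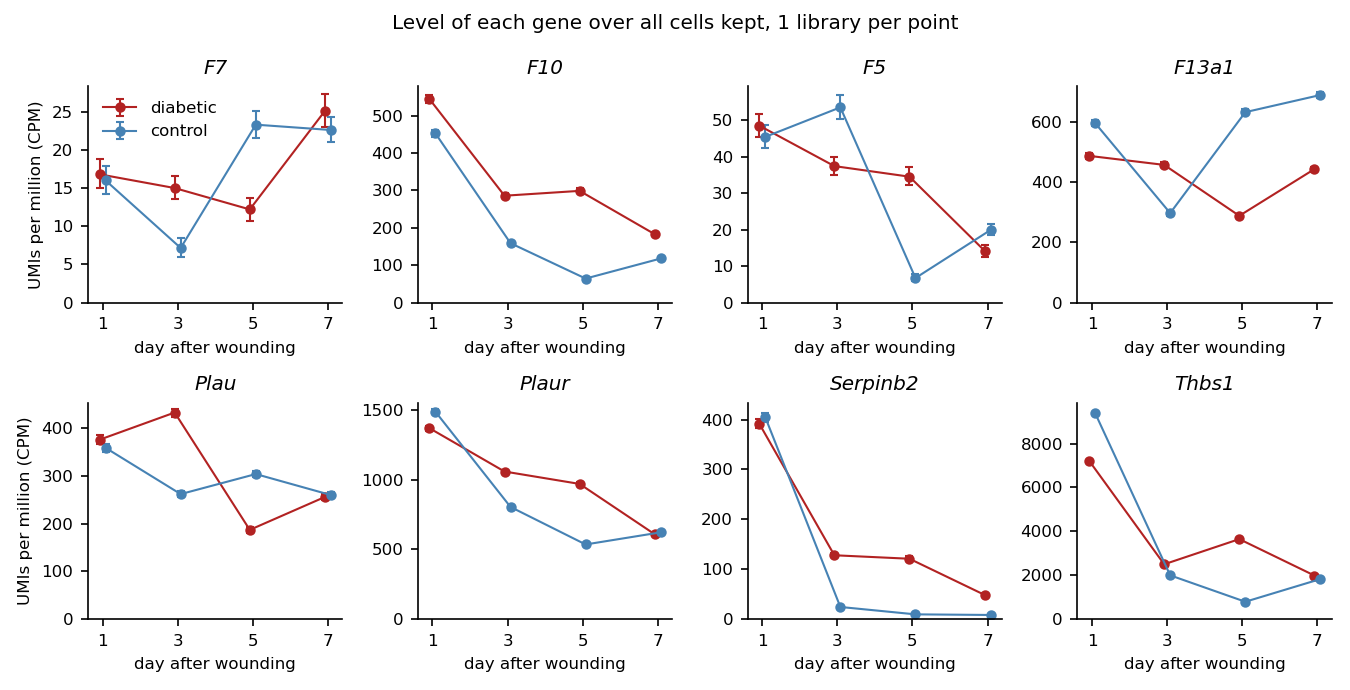
Level of each gene over all cells kept, in CPM (vertical axis, from 0), against the day after wounding, 1 point per library, with 1 line for each group and 95% Poisson intervals of the count as error bars. Serpinb2, Thbs1, F10 and Plaur start highest on day 1, with Serpinb2 at 392 and 405 CPM, and F13a1 ends at 443 CPM in diabetic and 689 CPM in control wounds.

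A fit with group and day as a number, over the 8 libraries, gave slopes per day on the log2 scale. Over all cells edgeR called 10.3% of genes, and 6.95% as lower with day. Of the 8 members 5 were called, all lower: Serpinb2 at -0.82 ± 0.16 (SE; edgeR quasi-likelihood test, Benjamini-Hochberg adjusted p = 0.0288), Thbs1 at -0.42 ± 0.11 (0.0484), F10 at -0.37 ± 0.08 (0.0339), Plaur at -0.28 ± 0.05 (0.0274) and Plau at -0.18 ± 0.05 (0.0474). F5 (-0.35, adjusted p = 0.0596), F13a1 (-0.07) and F7 (0.03) did not pass. The median slope of the members was -0.32, beside 0.02 over all genes. With library size alone as the scale, 2319 genes were called, 1837 of them higher with day against 431 of 1328 before, and Plau was lost (-0.10, adjusted p = 0.135). The calls depended on the first and last days. No member was called without diabetic day 1 (adjusted p of the 5 genes 0.101 to 0.170), without diabetic day 7 (0.134 to 0.161), without control day 1 (0.144 to 0.278) or without control day 7 (0.0507 to 0.0797). Thbs1 was also lost without diabetic day 5 (0.0554) and without control day 3 (0.0510), and Plau without diabetic day 3 (0.0547) and without control day 5 (0.0526). Both were lost without the top 5% of Scrublet scores (0.0511 for Thbs1 and 0.0518 for Plau). Without control day 5, F5 was called (-0.32, adjusted p = 0.0123). F5 was also called lower by DESeq2 and by edgeR with no low-count filter.

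Within neutrophil-like cells all 8 members passed, among 43.3% of all genes tested (20.4% lower with day), so their number is read against a class in which much changed. Serpinb2 fell by 0.76 per day on the log2 scale (edgeR adjusted p = 0.00199), Plaur by 0.36 (0.00185), Thbs1 by 0.34 (0.00873), F10 by 0.27 (0.00476), and F5 and Plau by 0.22 each (0.0179 and 0.00492). F13a1 and F7 rose, by 0.28 ± 0.07 (0.00678) and 0.24 ± 0.08 (0.0301). For F13a1 the ratio of day 7 to day 1 was 6.37 (5.71 to 7.11) in diabetic and 6.38 (5.75 to 7.10) in control wounds. Over the same libraries macrophage-like cells went from 1.91% to 24.9% and from 2.22% to 49.0% of cells, and the F13a1 level of T cell-like cells went from 266 to 107 CPM and from 187 to 208 CPM. The part of free macrophage RNA in the neutrophil-like rise was not tested. The class also sat in different clusters on different days. The NEU-3-like cluster held 934 and 716 cells on day 1 and 5 and 2 on day 7 in diabetic and control wounds, while NEU-1-like cluster 10 went from 11 and 5 cells to 307 and 858. Median levels in these clusters were 8129 and 3434 CPM for Thbs1, 161 and 21.1 for Serpinb2, 1475 and 884 for Plaur and 237 and 180 for F10. They were 116 and 72.5 for F5, 32.4 and 202 for F13a1 and 2.59 and 15.7 for F7. For Plau, whose slope fell, they went the other way, at 171 and 211 CPM. These medians lack day 7 in the first cluster and day 1 in the second, where fewer than 20 cells were present. The part of this change of clusters in the slopes was not tested.

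These neutrophil-like slopes depend on how cells are named and scaled. When cells were named singly from marker scores, 529 genes were called in place of 4131, Serpinb2, Plaur and Plau remained, and F7 (-0.02) and F5 (0.04) changed sign. At resolution 1.6 F7 and F5 were lost (edgeR adjusted p = 0.0569 and 0.0574). With library size alone, 4566 of 5064 genes called were higher with day (2181 of 4131 before), the median of all genes moved from 0.01 to 0.16, and F10 (-0.11, adjusted p = 0.0804), F5 (-0.07) and Plau (-0.06) were lost. Single libraries also mattered. F13a1 was lost without diabetic day 7 (adjusted p = 0.0920) or control day 7 (0.0698), F5 without the same libraries (0.124 and 0.109), and F7 without these (0.131 and 0.0855), without diabetic day 1 (0.0777) or without diabetic day 3 (0.0513). Plau and Thbs1 were lost without control day 1 (0.0526 and 0.0933). F10, Plaur and Serpinb2 were called whichever library was left out, and all 8 were called without control day 5.

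In monocyte-like cells no member's slope passed the test over the 8 libraries. Most were near 0, with F13a1 at 0.00, Plaur at -0.02, F10 at -0.03 and Thbs1 at -0.09 per day on the log2 scale, and 0 of 8 members passed, where 0.721% of all genes did. At an unadjusted p under 0.05 the edgeR quasi-likelihood test found 1322 genes and, of the members, F5 alone, with a slope of -0.22 (adjusted p = 0.351). DESeq2 called 313 genes and 0 members. Serpinb2 in this class was -0.26 ± 0.13 per day (edgeR adjusted p = 0.408). It was called without control day 3, the library at 12.4 CPM (-0.27, edgeR adjusted p = 0.0470), and with no low-count filter (-0.28, 0.0469). Control monocyte-like cells were few late in the course, with 89 on day 5 and 59 on day 7.

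In macrophage-like cells edgeR called 0.756% of genes, and Serpinb2 was the 1 member among them, at -0.44 ± 0.09 per day (adjusted p = 0.0450). Its level went from 99 to 15.3 CPM in diabetic and from 60.1 to 6.33 CPM in control wounds, on 35 and 27 UMIs at day 1, when only 91 and 98 macrophage-like cells were present. The call was lost without diabetic day 1 (0.200), diabetic day 3 (0.0772), diabetic day 5 (0.0630), diabetic day 7 (0.222), control day 1 (0.198) or control day 7 (0.0501), and when the mitochondrial share was regressed out before clustering (-0.10, 0.864). It was also lost at resolution 1.6 (0.0506), with the members left in the variable genes (0.105), with cells named singly (0.0507), at 500 genes per cell (0.0698), with Scrublet doublets removed (0.0706) and without the top 5% of Scrublet scores (0.184). F13a1 was highest on day 1 in both groups and its slope was -0.13 ± 0.05 (edgeR adjusted p = 0.361). Here too the clusters changed with the days: MAC-2-like cluster 4, with a F13a1 median of 576 CPM, held 16 and 9 cells on day 1 and 738 and 1978 on day 7 in diabetic and control wounds, and MAC-2-like cluster 13, at 1784 CPM, held 32 and 27 and then 135 and 267.

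The comparison of diabetic with control wounds used day as a block. F10 was higher in the diabetic library on each of the 4 days over all cells, by 1.2 (1.17 to 1.24), 1.79 (1.72 to 1.87), 4.66 (4.42 to 4.91) and 1.55 times (1.49 to 1.62). In monocyte-like cells the ratios were 1.31, 1.36, 1.97 and 1.06, and in macrophage-like cells 1.62, 1.38, 2.02 and 1.30, again above 1 on 4 of 4 days. The interval lay above 1 on 3 of 4 days in monocyte-like and on 4 of 4 in macrophage-like cells. In neutrophil-like cells the ratios were 0.992, 1.96, 2.01 and 1.96, with 3 intervals above 1.

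Serpinb2 was alike in both groups on day 1 over all cells and higher in diabetic wounds from day 3 on, with ratios of 0.970 (0.939 to 1.00), 5.27 (4.79 to 5.81), 12.8 (11.3 to 14.5) and 5.88 (5.14 to 6.75). In neutrophil-like cells the day 1 ratio was 0.508 (0.478 to 0.541), with the control library higher, and the later ratios were 3.05, 16.1 and 3.62. The day 5 value rests on 262 control cells. On day 7 the clusters of this class differed between diabetic and control wounds, as counted above for NEU-1-like cluster 10. Serpinb2 medians were 21.1 CPM in that cluster and 196 CPM in the NEU-2-like cluster. The part of this in the neutrophil-like ratios of the members was not tested. In monocyte-like cells the ratios were 1.38, 21.1 (15.9 to 28.8), 1.61 and 4.15, the day 3 value resting on a control level of 12.4 CPM. In macrophage-like cells they were 1.65 (0.969 to 2.83), 3.60, 3.24 and 2.41.

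Thbs1 was lower in the diabetic library on day 1 over all cells (0.769) and higher on days 3, 5 and 7 (1.25, 4.62 and 1.09). The day 5 ratio over all cells came with neutrophil-like cells at 45.8% of diabetic and 8.02% of control cells, and within classes it was 1.69 in neutrophil-like, 1.42 in monocyte-like and 2.16 in macrophage-like cells. Thbs1 was higher in the diabetic library on 4 of 4 days in monocyte-like cells. It was higher on only 2 of 4 days in neutrophil-like (lowest ratio 0.578) and in macrophage-like cells (lowest ratio 0.706). F5 had a day 5 ratio of 5.13 over all cells and 0.906 (0.735 to 1.12) in neutrophil-like cells. In neutrophil-like cells F5 was higher in the diabetic library on 0 of 4 days (ratios 0.625 to 0.938), with 2 intervals below 1. It was higher on 3 of 4 days in monocyte-like cells (ratios 0.392 to 1.81), with 1 interval above 1 and 1 below 1. In macrophage-like cells F5 was higher on 2 of 3 days, with 1 interval above 1. Plaur was higher in the diabetic library on 4 of 4 days in monocyte-like (1.13, 1.26, 1.15 and 1.2) and in macrophage-like cells (1.47, 1.34, 1.30 and 1.06), but on 2 of 4 days over all cells (0.921, 1.32, 1.81 and 0.979) and on 3 of 4 in neutrophil-like cells (0.833, 1.03, 1.97 and 1.05). F13a1 in monocyte-like cells had ratios on both sides of 1 (0.776, 1.45, 0.883 and 1.08), as did Plau over all cells (1.05, 1.65, 0.613 and 0.983).

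**Figure D5:**
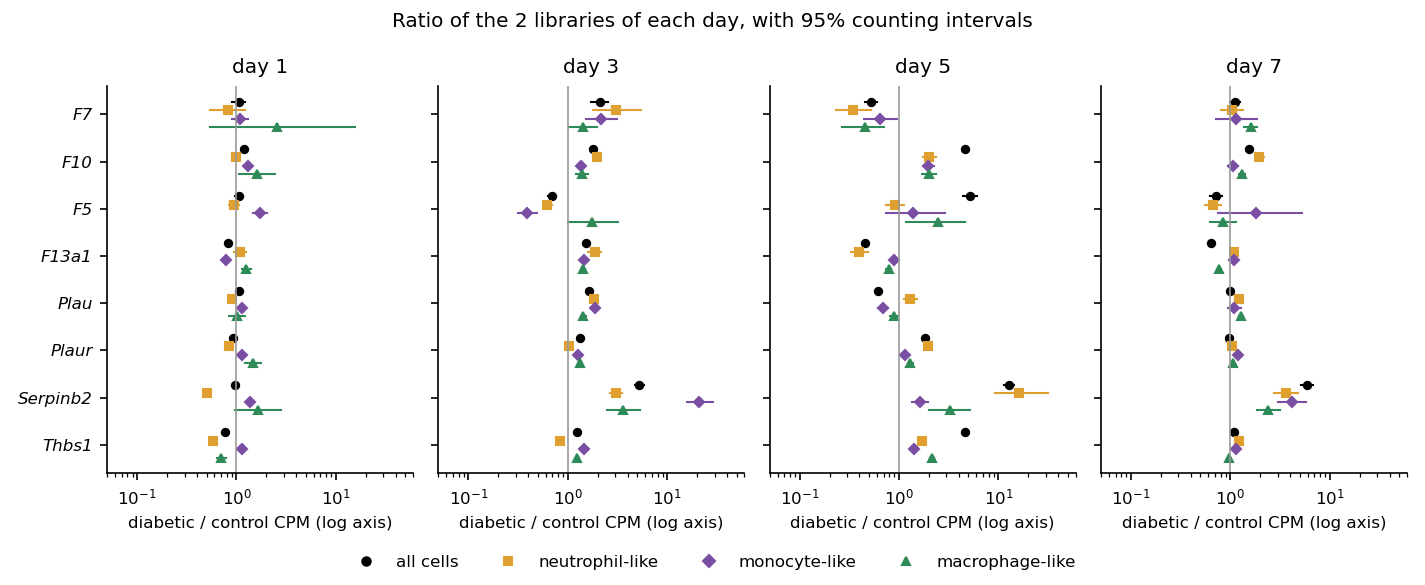
Diabetic over control ratio of each gene's CPM (horizontal log axis) on each day, over all cells and in 3 classes, with 95% Poisson intervals that cover counting error only. The Serpinb2 points lie at 5.27, 12.8 and 5.88 over all cells on days 3, 5 and 7, while F13a1 lies on both sides of 1.

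No gene was called between diabetic and control wounds over all cells or in neutrophil-like, monocyte-like or macrophage-like cells (0% of genes, and 0 of 8 members, in each), with 1458, 859, 767 and 917 genes at an unadjusted p under 0.05 by the edgeR quasi-likelihood test and 84, 36, 25 and 48 called by DESeq2. For Serpinb2 the difference was 2.25 ± 0.64 (log2, SE; edgeR adjusted p = 0.440) over all cells, 1.56 ± 0.66 (0.528) in neutrophil-like, 1.74 ± 0.52 (0.482) in monocyte-like and 1.42 ± 0.23 (0.130) in macrophage-like cells. For F10 it was 1.03 ± 0.36 (edgeR adjusted p = 0.440), 0.85 ± 0.28 (0.497), 0.50 ± 0.14 (0.464) and 0.63 ± 0.14 (0.270). DESeq2 called both genes in macrophage-like cells (adjusted p = 3.68e-05 for Serpinb2 and 0.0393 for F10). With no low-count filter, edgeR called Serpinb2 in neutrophil-like (adjusted p = 1.81e-05), monocyte-like (1.30e-23) and macrophage-like cells (2.02e-06), and F10 in monocyte-like (0.0191) and macrophage-like cells (0.00870), among 139, 160 and 181 genes. That fit kept genes of any count, 17453 in place of 9574 in monocyte-like cells. Why its p-values fell so far below those of the filtered fit was not tested. They are not read as evidence of a difference. Of the 8 members 7, 7, 8 and 8 had a positive difference, with medians of 0.33, 0.21, 0.26 and 0.29 beside 0.02, -0.02, 0.00 and 0.00 over all genes. The members were chosen with earlier results of these data known, so these counts and medians are descriptions. Without control day 5, the Serpinb2 difference over all cells was 1.65 ± 0.53 (edgeR adjusted p = 0.607) and that of F10 0.58 ± 0.16 (0.597), while Thbs1 went from 0.58 to 0.02 and F5 from 0.33 to -0.30. In neutrophil-like, monocyte-like and macrophage-like cells the Serpinb2 difference without that library was 0.76, 2.17 and 1.34, and that of F10 was 0.61, 0.35 and 0.48. With 1 pool of mice per group and day, the p-values of the filtered fits measure the spread between libraries over the days.

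A test of whether the slope over days differed between the groups called 0 genes in each of the 4 sets (217, 195, 159 and 199 at an unadjusted p under 0.05, edgeR). Serpinb2 in neutrophil-like cells had a difference in slope of 0.65 ± 0.20 per day (diabetic minus control), with an unadjusted p of 0.00569 and an adjusted p of 1.00 in edgeR's quasi-likelihood test.

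The rest of the pathway was read from lists of 54 further genes of coagulation, anticoagulation, thrombin sensing, fibrinolysis, partners of thrombospondin and urokinase receptor, and factor maturation. Fibrinogen chains (Fga, Fgb and Fgg), F13b, Proc and Serpina5 had no row in any table, and 31 of the 54 reached 500 UMIs. F3, which encodes tissue factor, was highest among leukocytes in neutrophil-like cells, with a median of 46.4 CPM against 6.32 in monocyte-like and 5.99 in macrophage-like cells. With TMM factors, a scale other than the CPM of these medians, it was lower in monocyte-like than in neutrophil-like cells by -4.0 ± 0.37 (log2, SE; edgeR adjusted p = 1.33e-11). F3 fell with day over all cells (-0.47 ± 0.11, edgeR adjusted p = 0.0397) and in neutrophil-like cells (-0.52 ± 0.10, 0.00221), and it was called lower in both with library size alone as the scale (-0.39 and -0.37). Without control day 1 the call of F3 over all cells was lost, since the 1 gene called there rose with day.

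Of the anticoagulant genes, Thbd (thrombomodulin) had medians of 50.5 CPM in monocyte-like and 53.3 in macrophage-like against 16.5 in neutrophil-like cells, Procr (the protein C receptor) 83.1, 33.3 and 18.6 CPM, and Pros1 (protein S) 29.7, 73.2 and 7.44 CPM. In these 3 genes neutrophil-like cells were the lowest of monocyte-like, macrophage-like and neutrophil-like cells. This was not so for Tfpi, with 2.85, 17.9 and 3.06 CPM, or Serpine2, with 1.32, 2.58 and 1.79 CPM. In the fibrinolysis list, S100a10 and Anxa2, whose products bind plasminogen at the cell surface as a complex, had medians of 1320 and 1358 CPM in monocyte-like cells against 175 and 630 in neutrophil-like cells. Plat, the tissue plasminogen activator gene, was low, at 35.4 CPM in dendritic-like and 11.4 in monocyte-like cells. Cd36, a receptor of thrombospondin 1, had 756 CPM in macrophage-like, 320 in monocyte-like and 58.1 in neutrophil-like cells, whereas Itgam, an integrin partner of the urokinase receptor, was at 884, 1162 and 793 CPM in neutrophil-like, monocyte-like and macrophage-like cells.

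Between diabetic and control wounds, 0 of the pathway genes tested were called in any set. Over the days, 6 of 39 tested were called over all cells (10.3% of all genes were), 3 up and 3 down, and 14 were with library size alone as the scale, 12 up and 2 down. Thbd (0.17 per day, edgeR adjusted p = 0.0433) and Serpinb6a (0.51, 0.0491) rose and Itgam fell (-0.28, 0.0292) on both scales. The fit over all cells called 7, 4 and 1 genes without diabetic day 1, diabetic day 7 and control day 1, and 227 without control day 7. The 1 gene called without control day 1 rose with day, so Itgam and F3 were not called as falling there. Which other pathway genes were among those called was not tested. In neutrophil-like cells 19 of 28 tested were called (43.3% of all genes were), 13 up and 6 down, and with library size alone 18 were, 17 up and 1 down, the 1 being F3. The fibrinolysis list also holds the serpin genes Serpinb6a and Serpinb9, the second with a median of 935 CPM in NK cell-like cells. A place in the list does not show a part in fibrinolysis. Of this list, 6 of 8 tested rose in neutrophil-like cells on the TMM scale, where 2181 of 9536 genes tested were called higher. The 6 included Serpinb6a (0.63, edgeR adjusted p = 0.000339), which was also called on the other scale (0.78). Serpinb6a had medians of 254 CPM in macrophage-like and 27.0 in neutrophil-like cells. The part of free macrophage RNA in its rise was not tested. The neutrophil-like fit called 529 genes with cells named singly and 2077 without diabetic day 7. Which pathway genes were among those was not tested. In monocyte-like cells 2 of 26 were called (0.721% of all genes), both up, Serpinb6a (0.50) and Itgav (0.19), and in macrophage-like cells 3 of 31 (0.756% of all genes), all up, Thbd (0.26), Serpinb9 (0.31) and Serping1 (0.80). Serping1 had a median of 2.15 CPM in macrophage-like and 2317 CPM in fibroblast-like cells, and summed fibroblast markers were at 15.8 and 70.8 CPM on day 1 and 1583 and 741 CPM on day 7 in control and diabetic wounds; their part in the rise was not tested. Without 1 library, these fits called as few as 11 genes in monocyte-like cells (without diabetic day 7 or control day 7) and 1 in macrophage-like cells (without diabetic day 7; 4 without diabetic day 3), so at least 2 of the 3 macrophage-like calls were lost without diabetic day 7. The counts of these 2 classes were the same with library size alone.

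Between the classes, 24 of 33 pathway genes tested were called for monocyte-like against neutrophil-like cells (13 up and 11 down, or 16 and 5 with library size alone), 23 of 33 for macrophage-like against neutrophil-like (12 and 11, or 18 and 6) and 12 of 33 for macrophage-like against monocyte-like cells (6 and 6, or 5 and 5). These are 72.7%, 69.7% and 36.4% of those tested, beside 58.6%, 63.6% and 19.1% of all genes. Tfpi, which encodes the inhibitor of the tissue factor pathway, was higher in macrophage-like than in monocyte-like cells by 1.75 (log2, edgeR adjusted p = 0.000422) and Pros1 by 1.04 (0.00614), and Procr was lower by -1.48 (2.93e-05). All 3 kept their sign and their call with library size alone (1.90, 1.19 and -1.43).

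To place the members among all genes, log2(CPM + 10) was correlated over 55 sums of library and class, for 9971 genes. These sums share libraries and cell classes, so the values are descriptions. F10 was most like Thbs1 (Pearson r = 0.94) and Inhba (0.93), F13a1 most like Cndp2 and Msr1 (0.93 each), F5 most like Hp and Ptgs2os2 (0.91 each), and Plaur most like Cd14 (0.94). Serpinb2 had lower values, 0.80 with Gm14005 and Cxcl3, as had F7 (0.86 with Fam20c, Abca1 and Cxcl1) and Plau (0.83 with Fnip1 and Lonrf1). Among the members, F10 and Plaur had r = 0.86 and F13a1 and F7 0.78, and F13a1 and Serpinb2 had 0.19. The neighbours F7 and F10 had 0.66.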

How the data were processed

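The deposited files are raw counts: the authors gave 1 table per library with the number of UMIs per gene and cell barcode, not normalized. The submitters' processing notes name fastp 0.20.1 and the build mm9, while the study's methods name UMI-tools and STAR with Ensembl release 92; which build was used for counting was not settled here, and the tables hold gene symbols only. A barcode was kept as a cell when it had more than 200 genes and a mitochondrial share below 20%. Tables held 19236522 to 33842509 UMIs.

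Cells were clustered in scanpy 1.11.5 (Python 3.11.15, 2000 variable genes without the members and their pathway, 10 components, 30 neighbours, Leiden resolution 0.8) and clusters were named from marker lists. Scrublet called 68 cells (0.193%), a share too small to rely on, so the top 5% of scores were removed as an alternative. UMIs were summed per library and class, leaving out sums of under 20 cells, and tested with edgeR 4.0.16 (R 4.3.3), TMM factors, filterByExpr and the quasi-likelihood test, at a Benjamini-Hochberg adjusted p of 0.05 over all genes: group with day as a block, day as a number with group, and class with library as a block. The scripts were tested on simulated data. DESeq2 1.42.0, other size factors, no low-count filter, other cell filters, resolutions and naming, and leaving out each library were tried. Scaling by library size alone, the removal of the top Scrublet scores, the 2 mitochondrial alternatives, the slope difference and the set without control day 5 as a named case were chosen after seeing the data.

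Named are the 8 members and those of 54 pathway genes with at least 500 UMIs. Some items of the lists are not reported here. The members and lists were chosen with earlier results of these data known. Barcodes are numbered serially in each table, so barcodes shared by libraries could not be counted. Intervals cover counting error only. Each SE is the absolute log2 value divided by the square root of the F statistic of the edgeR test.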

Additional observations from a re-analysis of the deposited data

How the results depend on the processing

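Of 605 log2 values of called members under the alternatives, 537 kept their direction and their call, 66 kept their direction alone and 2 reversed, F7 (-0.02) and F5 (0.04) over the days in neutrophil-like cells named singly; the cause was not tested. The day number pairs the libraries of both groups, and with no replicate block (day not blocked) the diabetic against control fits called 0 genes in all 4 sets, as with the block. In those sets (all cells, neutrophil-like, monocyte-like and macrophage-like), where no gene was called, DESeq2 called 84, 36, 25 and 48 genes, and no low-count filter 1, 139, 160 and 181. At resolution 1.6 there were 2 in neutrophil-like and 3 in macrophage-like cells, at resolution 0.4 there was 1 in macrophage-like cells, with cells named singly 8 and 2, and without the top 5% of Scrublet scores 1 in macrophage-like cells. Without 1 library the counts were 0 to 1, 0 to 1, 0 to 26 and 0 to 7.

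For the day trend, all cells gave 2319 genes with library size alone and 2780 with DESeq2. Neutrophil-like cells gave 529 when named singly. Monocyte-like cells gave 313 with DESeq2, 421 with no low-count filter, 250 when named singly and 134 with no mitochondrial filter. Macrophage-like cells gave 188 with DESeq2, 322 with no low-count filter, 133 at resolution 1.6 and 33 when named singly. Without 1 library the counts were 1 to 1568, 2077 to 4922, 11 to 269 and 1 to 149. The class contrasts gave 5683 to 6698, 6289 to 7139 and 1524 to 1892 without 1 library. The cause of these moves was not tested. Depth limits F7 and F5 most, with 3363 and 5676 UMIs in all, and Serpinb2 in macrophage-like cells on day 1.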
